A study of Mus musculus with 2 samples.

Results

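The vehicle cells with the most DNA replication transcripts numbered 457 of the 2854 vehicle cells and of the 5135 cells of the series. They are called S-phase cells here, after S phase, the part of the cell cycle in which DNA is copied. They were chosen in the vehicle library by their own transcripts. The 571 cells in the top 20% for the summed share of Ccnb1, Plk1, Cdc20, Hmmr, Ube2c and Cenpe among all UMIs (unique molecular identifiers, which count distinct captured transcripts) were set aside as G2/M-high cells. Of the remaining 2283 cells, the top 20% for the summed share of Mcm5, Cdc6, Cdc45, Clspn, E2f8, Rrm2, Hells and Dtl are the S-phase cells. The lower 50%, 1142 cells, are the reference cells, and the 684 cells between them are called middle cells.

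The study profiled mouse renal progenitors by droplet single-cell RNA sequencing, with 1 library of vehicle cells and 1 library of cells given panobinostat, a histone deacetylase inhibitor. Both came from C57Bl/6 mice aged 9 weeks that carried Pax2.rtTA, TetO.Cre and the reporter R26.mT/mG, in which Cre is made under control of Pax2 and the R26 reporter then switches to GFP. GFP-positive cells were sorted from glomerular outgrowths after 5 days, starved for 16 h and then kept for 48 h in serum with DMSO or with 0.2 µM panobinostat. The label gives 2 mice, cells are not tied to a mouse, and cells are not replicates, so there are no p-values here, and intervals speak of counting error alone.

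A cell that leaves G1 makes E2F-driven transcripts for cyclin E, for the factors that license replication origins and for the enzymes that make deoxynucleotides. Origins then fire, the replicative helicase opens the DNA, the polymerases copy it with the PCNA clamp, and new histones package the daughter strands. Genes for mitosis are switched on later, from late S phase into G2, and many carry a CHR element that is bound by the DREAM and MuvB complexes.

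The promoters of chosen members of both gene sets show these elements in sequence. The stretches are the 250 bases before the annotated start, from RefSeq on GRCm38.p6, written 5′ to 3′ on the gene's strand. Capitals mark an E2F motif (TTTGGCGC, TTTCCCGC, TTTGCCGC or TTTCGCGC on either strand) in the first 4, which are S-phase genes of the rule, and a CHR motif (TTTGAA or TTCGAA on either strand) in the last, Ube2c, a G2/M gene of the rule. They lie at chr11:98907901-98908150, plus strand for Cdc6, chr8:75109259-75109508, plus strand for Mcm5, chr19:38930740-38930989, plus strand for Hells, chr1:191575545-191575794, minus strand for Dtl and chr2:164769679-164769928, plus strand for Ube2c. The 2 E2F matches of Mcm5 overlap.
Cdc6: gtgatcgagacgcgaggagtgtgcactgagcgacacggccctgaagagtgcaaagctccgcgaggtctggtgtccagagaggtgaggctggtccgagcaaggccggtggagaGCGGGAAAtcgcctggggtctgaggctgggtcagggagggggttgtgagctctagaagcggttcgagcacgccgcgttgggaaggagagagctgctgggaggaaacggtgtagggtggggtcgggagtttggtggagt
Mcm5: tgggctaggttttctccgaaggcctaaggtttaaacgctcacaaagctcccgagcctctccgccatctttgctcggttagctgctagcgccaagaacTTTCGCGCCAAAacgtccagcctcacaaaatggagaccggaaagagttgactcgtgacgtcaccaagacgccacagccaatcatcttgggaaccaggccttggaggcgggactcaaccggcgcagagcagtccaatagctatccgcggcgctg
Hells: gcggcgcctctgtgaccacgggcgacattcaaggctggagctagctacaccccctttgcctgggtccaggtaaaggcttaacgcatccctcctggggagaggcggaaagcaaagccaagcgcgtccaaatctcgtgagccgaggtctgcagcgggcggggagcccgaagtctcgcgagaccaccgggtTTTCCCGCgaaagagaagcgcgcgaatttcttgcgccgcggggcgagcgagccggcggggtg
Dtl: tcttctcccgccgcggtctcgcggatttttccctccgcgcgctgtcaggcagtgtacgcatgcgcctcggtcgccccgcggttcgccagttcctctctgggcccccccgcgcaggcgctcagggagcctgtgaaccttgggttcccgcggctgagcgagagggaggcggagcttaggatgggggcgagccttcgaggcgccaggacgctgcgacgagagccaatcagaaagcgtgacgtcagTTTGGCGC
Ube2c: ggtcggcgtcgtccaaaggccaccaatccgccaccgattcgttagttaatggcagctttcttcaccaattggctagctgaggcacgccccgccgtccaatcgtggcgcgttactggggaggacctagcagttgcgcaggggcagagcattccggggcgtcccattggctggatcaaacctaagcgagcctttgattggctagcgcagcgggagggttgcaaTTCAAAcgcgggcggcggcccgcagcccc

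Over windows of 300 bases, from 250 before the start to 50 after it, 5 of the 8 S-phase genes of the rule held an E2F motif (62.5%) and 2 held a CHR motif. Clspn had its E2F match after the start, and Cdc45, E2f8 and Rrm2 had no match to these letters in the window. Of all 32851 windows in the RefSeq table, 2.26% held an E2F motif and 19.2% a CHR motif. A match describes the letters only, and the windows are taken up again below for the genes that separated the S-phase cells from other cells.

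The S-phase cells had a median of 1020 UMIs of the 8 genes per 1000000 UMIs of the cell, from 768 to 1962. The middle cells had a median of 508, the reference cells 52.5 and the G2/M-high cells 532, and 311 reference cells held no UMI of any of the 8. No gap separated the S-phase cells from the middle cells. The lowest member had 767.9 per 1000000 and the highest cell outside had 767.8, the next members on either side were at 768.5 and 766.0, and 166 cells lay within 10% of that edge. The class is therefore a range on a continuous scale. The G2/M edge was as close, at 1208 inside and 1202 outside, and 109 of the 571 G2/M-high cells (19.1%, exact binomial 95% interval 15.9 to 22.6) also reached the S-phase edge. No panobinostat cell did: 0 of 2281, which allows a share of up to 0.132% by the limit of 3 cells. The highest panobinostat cell stood at 249.6 per 1000000 and was the only one past the upper edge of the reference cells at 247.2, although 1642 panobinostat cells (72.0%) held at least 1 UMI of the 8 genes. The treatment and the library cannot be told apart with 1 library each.

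**Figure D1:**
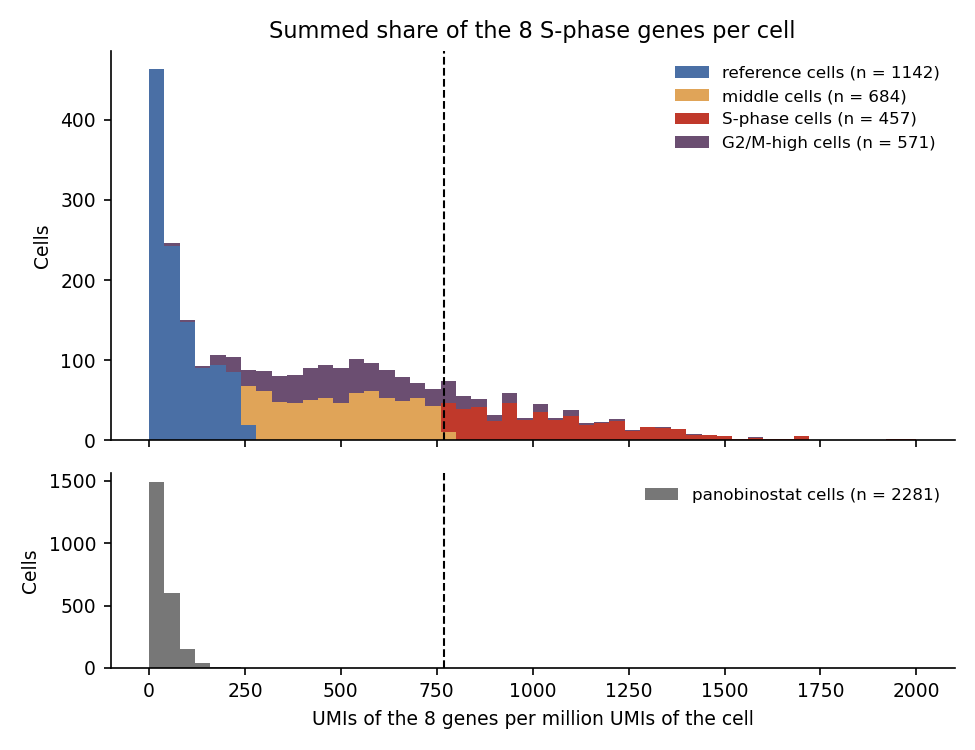
Histogram of cells by the UMIs of the 8 S-phase genes per 1000000 UMIs of the cell, with vehicle cells stacked by class in the upper panel and panobinostat cells in the lower panel. The dashed line is the lowest S-phase member at 768 per 1000000, and all 2281 panobinostat cells lie to its left.

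The S-phase cells held 12835222 UMIs in all, with a median of 24815 per cell and 5306 genes per cell. The reference cells had medians of 26526 UMIs and 5285 genes, the G2/M-high cells 33257 UMIs and 6060 genes, and the panobinostat cells 42394 UMIs and 6589 genes. Of the S-phase cells, 5.03% were among the 10% of vehicle cells with the most UMIs, against 10.1% of the reference cells and 12.1% of the G2/M-high cells. The median share of mitochondrial UMIs was 4.71% in the S-phase cells, 5.79% in the reference cells and 4.71% in the G2/M-high cells. The nuclear RNA Malat1 stood at 4733 CPM in the S-phase cells, 5425 in the middle cells, 10639.8 in the reference cells and 5259 in the G2/M-high cells. These shares moved with the class, and their part in the results below was not tested. No barcode was shared by the 2 libraries.

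All 5 S-phase markers were raised in the members, which the rule fixes for them. Claspin, Clspn, the mediator of the replication checkpoint, stood at 110.4 CPM in the S-phase cells, 42.4 in the middle cells, 2.16 in the reference cells and 48 in the G2/M-high cells. Cdc6, which loads the helicase on origins, stood at 68.6 CPM in the S-phase cells, 24.8 in the middle cells, 1.69 in the reference cells and 14.8 in the G2/M-high cells. The helicase subunit Mcm5 had 129 CPM in the S-phase cells, 65.4 in the middle cells, 9.83 in the reference cells and 55 in the G2/M-high cells. The helicase cofactor Cdc45 had 34.7 CPM against 1.85 in the reference cells, and Rrm2, the regulated subunit of ribonucleotide reductase, 420.2 against 33.3. CPM are UMIs per 1000000 UMIs of the class, summed over its cells. Of the other rule genes, the repressor E2f8 stood at 52.9 and 2.75 CPM, the remodeller Hells at 168 and 14.3, and Dtl, a substrate receptor of the CRL4 ubiquitin ligase, at 66.4 and 10.5. In the panobinostat library the 8 genes lay between 0.25 CPM for Cdc6 and 12.7 CPM for Rrm2.

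The members were also chosen on a random 50% of each cell's UMIs and measured on the other 50%, so that one UMI does not serve both. Of the 457 members by the full rule, 366 (80.1%) were chosen again, and none of the reference cells of the full rule was. In the UMIs not used for the choice the median share was 944 per 1000000 in members and 53.6 in reference cells. Clspn was then 28.0-fold higher in members, Cdc6 23.7-fold, E2f8 17.3-fold, Cdc45 11.5-fold, Mcm5 10.2-fold, Rrm2 9.13-fold, Hells 8.48-fold and Dtl 5.09-fold. Among the 8 genes Clspn and Cdc6 had the largest ratios and Dtl the smallest. Both sets of UMIs come from the same cells, so higher levels of these 8 genes still follow from the choice. The ratios and the overlap are a description.

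Detection in single cells is given as a description, since the members were chosen for a high sum of the same transcripts and the order of the classes follows from that choice. After each cell was thinned to 16665 UMIs, which left 415 of the 457 members and 1011 of the 1142 reference cells, a member held a median of 6 of the 8 genes (quartiles 5 and 7), and 31 members held all 8. The median was 4 in the middle cells and in the G2/M-high cells, 1 in the reference cells and 0 in the panobinostat cells. Rrm2 was seen in 99.5% of members and 38.8% of reference cells, and Mcm5 in 88.2% and 14% (unthinned 95% and 22.3%). Cdc6 was seen in 63.9% and 2.57% (unthinned 76.4% and 4.29%). The panobinostat cells showed 18.4% for Rrm2, 2.94% for Mcm5 and 0.49% for Cdc6 at that depth (unthinned 39.5%, 6.66% and 1.14%).

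Across all genes, 9609 passed a floor of 5 CPM over all vehicle cells. A gene is called higher or lower where the ratio of its summed CPM is at least 1.5-fold and the exact 95% interval of the ratio excludes equality. By this rule of size 1239 genes were higher in the S-phase cells than in the reference cells (12.9% of those measured) and 748 were lower (7.78%), around a median log2 ratio of 0.02. The cells were chosen on transcripts of the same libraries, so these counts describe the chosen cells. With every other cell of the rest as reference, middle cells included, 725 were higher and 410 lower. At 2-fold, against the reference cells as chosen, 567 were higher (5.9%) and 182 lower (1.89%). The 10 lists for the replication programme held 179 genes past the floor outside the rule, of which 150 were higher and 2, Ccnd2 and Pold4, were lower. Their median log2 ratio was 1.85. In 162 of the 179 the level in the middle cells was above that of the reference cells and below that of the S-phase cells, as it was for 3645 of all 9609 genes. In 137 of the 179 the S-phase cells had the highest level of the 4 vehicle classes, as they had for 2772 of all 9609 genes.

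**Figure D2:**
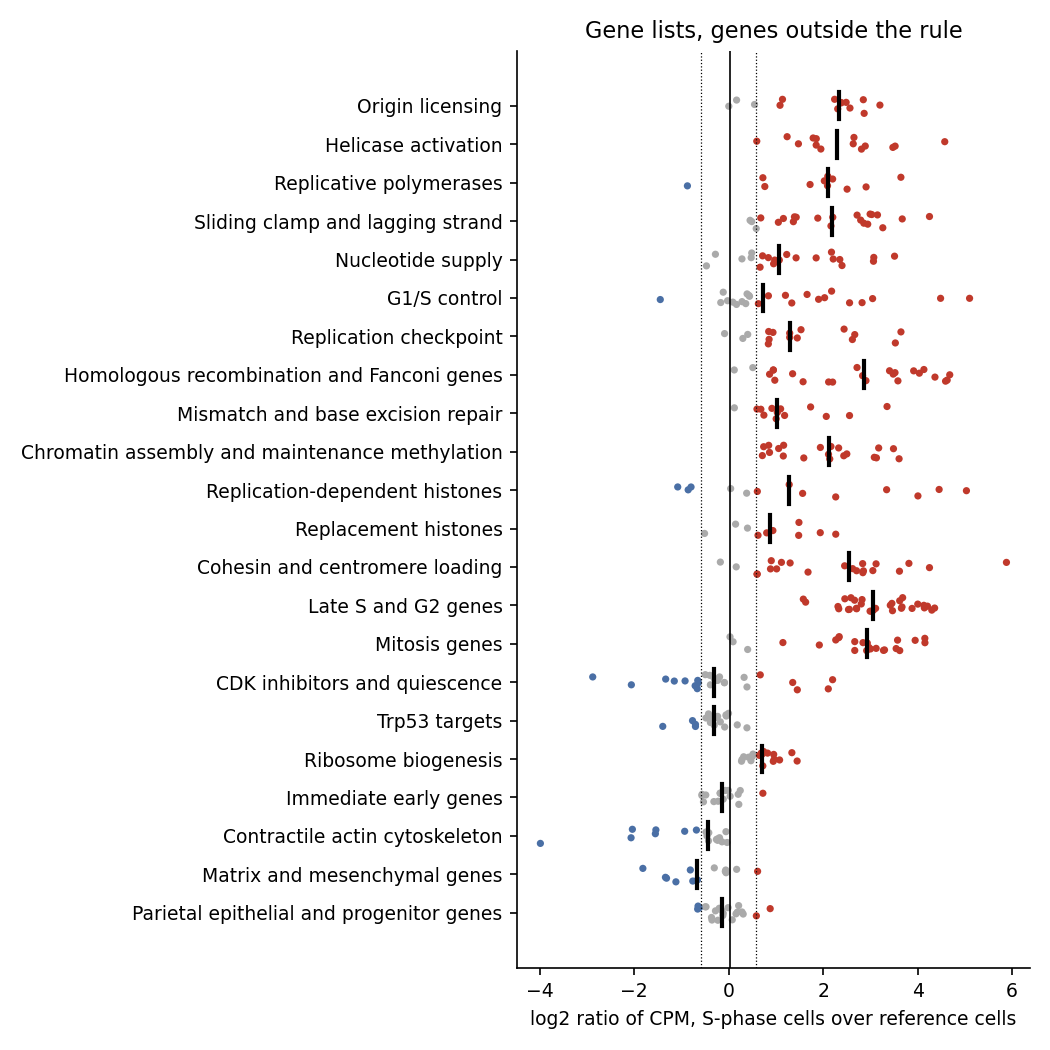
Each point is a gene past the floor and outside the rule, placed by its log2 ratio of CPM in S-phase over reference cells, and each row is a gene list with its median as a black bar (red, called higher; blue, called lower; grey, neither). The thin line is the median of all 9609 genes at 0.02 and the dotted lines mark 1.5-fold; the rows from origin licensing to mitosis genes lie to the right.

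At origins, 11 of 14 licensing genes were higher and none lower, with a median of 2.34 on the log2 scale. Mcm3, a subunit of the same helicase ring as Mcm5, stood at 243 CPM in the S-phase cells, 141 in the middle cells, 26.4 in the reference cells and 116 in the G2/M-high cells (log2 ratio over the reference cells 3.20, interval 3.10 to 3.31). Cdt1, the loader that works with Cdc6, had 42.5 CPM in S-phase and 5.9 in reference cells. Its inhibitor geminin, Gmnn, had 134 and 18.3. The 3 not called were the origin recognition subunits Orc3, Orc4 and Orc5. Helicase activation genes were higher in 14 of 14, with the activator Mcm10 at 27.4 and 1.15 CPM (log2 4.57, interval 4.10 to 5.08) and the fork protein Wdhd1 at 27.2 and 2.44. Mcm10 thus differed more than Wdhd1 from the reference cells, and less from the G2/M-high cells (0.56 against 1.21).

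At the fork, 10 of 11 replicative polymerase genes were higher (median 2.09). The primase Prim1 stood at 83 CPM in the S-phase cells, 50.3 in the middle cells, 6.63 in the reference cells and 56.4 in the G2/M-high cells (log2 over the reference 3.65). Pole, Pola1, Pold1 and Pola2, catalytic or accessory subunits of the 3 replicative polymerases, had log2 ratios of 2.91, 2.51, 2.20 and 2.10. Pold4, the small subunit of polymerase delta, ran the other way, at 38.8 CPM in S-phase and 71 in reference cells (log2 -0.87, interval -1.01 to -0.73). Of 22 genes of the sliding clamp and lagging strand 19 were higher. The clamp itself, Pcna, stood at 100.04 CPM in the S-phase cells, 65.6 in the middle cells, 21.7 in the reference cells and 53.1 in the G2/M-high cells. Pclaf, which binds PCNA, had 475 CPM against 37.2 in the reference cells and 0.845 in the panobinostat library. Dscc1, part of an alternative clamp loader, showed the largest ratio of the list, 4.25, interval 3.68 to 4.87.

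Nucleotide supply was higher in 16 of 21 genes, with a median of 1.07. Thymidine kinase Tk1 stood at 86.8 CPM in the S-phase, 7.61 in the reference and 85.5 in the G2/M-high cells. Thymidylate synthase Tyms stood at 129, 24.4 and 109 in the same order. Neither was called higher than in the G2/M-high cells. The genes not called against the reference cells were Rrm2b, Tk2, Dctd, Ctps and Nme1.

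The genes of G1/S control were split, with 13 of 24 higher, 1 lower and 10 neither. Cyclin E2, Ccne2, stood at 49.1 CPM in the S-phase cells, 19.2 in the middle cells, 2.19 in the reference cells and 9.06 in the G2/M-high cells (log2 over the reference 4.49, interval 4.14 to 4.84). Cyclin E1, Ccne1, stood at 96.7 CPM in the S-phase cells, 48.8 in the middle cells, 13.7 in the reference cells and 27.9 in the G2/M-high cells (log2 2.82, interval 2.67 to 2.98). Both cyclins that start replication were lower in the G2/M-high cells than in the middle cells. The activator E2f1 had 35.8 CPM against 6.07, and Fbxo5, which holds back the anaphase-promoting complex, 70.3 against 2.05. The D-type cyclins, which act earlier in G1, did not follow. Ccnd1 was level, at 1845 CPM in the S-phase cells, 1803 in the middle cells, 1874 in the reference cells and 1757 in the G2/M-high cells (log2 -0.02, interval -0.04 to -0.00), and Ccnd2 was lower, at 115 CPM in the S-phase cells, 156 in the middle cells, 313 in the reference cells and 104 in the G2/M-high cells (log2 -1.45, interval -1.53 to -1.37). Ccnd3, Cdk4, Cdk6, Rb1 and Myc were among those called in neither direction.

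Checkpoint and repair genes were higher with few exceptions. The kinase Chek1 stood at 33.4 CPM in S-phase and 2.67 in reference cells, in a checkpoint list with 13 of 16 higher. Homologous recombination and Fanconi genes were higher in 22 of 24, with a median of 2.87. The nuclease Exo1 had 42.5 and 1.66 CPM. In mismatch and base excision repair 12 of 13 were higher. Ung, the glycosylase that removes uracil from DNA (chr5:114130386-114139323 in GENCODE M21 on GRCm38), stood at 37 CPM in the S-phase cells, 18.4 in the middle cells, 3.62 in the reference cells and 3.4 in the G2/M-high cells. Its level in the G2/M-high cells was close to that of the reference cells, while Exo1 stood at 25.1 CPM there. The mismatch repair subunit Msh6 followed at 57.7, 13.8 and 25.4 CPM in S-phase, reference and G2/M-high cells. After thinning Ung was seen in 42.2% of members, 4.85% of reference cells, 3.92% of G2/M-high cells and 9.27% of panobinostat cells (unthinned 56.5%, 9.28%, 8.06% and 21.9%).

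Genes that rebuild chromatin behind the fork were higher in 20 of 20 (median 2.13). Uhrf1, which guides maintenance DNA methylation, stood at 154 CPM in the S-phase cells, 78.6 in the middle cells, 13.8 in the reference cells and 73.8 in the G2/M-high cells. The histone chaperones Chaf1b and Asf1b had log2 ratios of 3.13 and 3.61. Of 64 replication-dependent histone genes, 61 had a row and 13 passed the floor, so most of the family was too low to be described. Their transcripts mostly lack the poly(A) tail that 3′ libraries use, and near-identical copies can share reads. Linker histone Hist1h1b stood at 170.1 CPM in the S-phase cells, 108 in the middle cells, 5.2 in the reference cells and 101 in the G2/M-high cells (log2 over the reference 5.03, interval 4.82 to 5.26). Hist1h2ap and Hist1h2ae had ratios of 4.45 and 4.01, while Hist1h1c (-0.80), Hist1h2bc (-1.08) and Hist3h2a were lower in the S-phase cells. Among 10 replacement histones 7 were higher, led by the centromeric Cenpa at 108 and 22.4 CPM. Cenpa and H2afx were higher still in the G2/M-high cells, at 229 and 225 CPM, and were the 2 of the list called lower against them (log2 -1.09 and -0.82). H2afz stood at 1764 and 629 CPM. In cohesin and centromere loading 20 of 22 were higher. Esco2, which acetylates cohesin during replication, had the highest ratio of the named genes, at 29.8 and 0.506 CPM (log2 5.88, interval 5.20 to 6.65), from 15 reference cells with a UMI.

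Genes of the next phases were also raised over the reference cells, to levels mostly below those of the G2/M-high cells. All 31 late S and G2 genes were higher (median 3.06), as were 21 of 24 mitosis genes outside the rule (median 2.93). Cyclin A2, Ccna2, stood at 91.1 CPM in the S-phase cells, 72.7 in the middle cells, 5.2 in the reference cells and 163 in the G2/M-high cells. The proliferation marker Mki67 stood at 188 CPM in the S-phase cells, 141 in the middle cells, 10.2 in the reference cells and 303 in the G2/M-high cells, and the topoisomerase Top2a at 296 CPM in the S-phase cells, 247 in the middle cells, 20.1 in the reference cells and 656 in the G2/M-high cells. The 6 G2/M genes of the rule, whose upper range was cut off by the choice, were still higher than in the reference cells, from 2.14 for Ube2c to 3.42 for Ccnb1. After thinning Ccnb1 was seen in 72% of members, 9.59% of reference cells and 96.3% of G2/M-high cells. Of the 15 genes outside all lists with the largest ratios, Kif15, a spindle kinesin, led with 4.69. Fam111a, a protease that binds PCNA, stood at 65.2 and 3.17 CPM, and Atad2, a bromodomain ATPase, at 167 and 13.7.

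Against the G2/M-high cells, the other class with high levels of cell-cycle genes, 124 genes were higher in the S-phase cells (1.29% of 9609) and 202 were lower (2.1%), and the median over all genes was -0.02 on the log2 scale. At 2-fold the counts were 23 (0.239%) and 62 (0.645%). The cells were set apart by G2/M genes, so the direction of those genes is fixed by the choice. The S-phase cells were also chosen for a high S-phase share, and the G2/M-high cells were not. The choice therefore also favours higher levels of replication genes that vary with that share, and its part was not separated. The counts over all genes include the rule genes. Every S-phase gene of the rule except E2f8 was called higher, and every G2/M gene of the rule lower. The 179 replication genes had a median of 0.27, with 43 higher and 4 lower. Of the 31 late S and G2 genes 26 were lower and 2 higher (median -0.84), and of 24 mitosis genes 20 were lower and none higher (median -1.09). Ung showed the largest difference among the replication genes (log2 3.45, interval 3.08 to 3.83), followed by Ccne2 (2.44, interval 2.20 to 2.68) and Ccne1 (1.79, interval 1.65 to 1.94), with E2f1 at 1.39. The polymerases (0 of 11 called), Tk1 (0.02) and Pclaf (0.33) separated the classes little. Licensing genes stood between, with 7 of 14 higher, such as Mcm3 at 1.07. Lower in the S-phase cells were Nusap1, a spindle protein (-2.60), Ube2c (-2.28), the phosphatase Cdc25b (-2.27) and the spindle protein Aspm (-1.90).

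**Figure D3:**
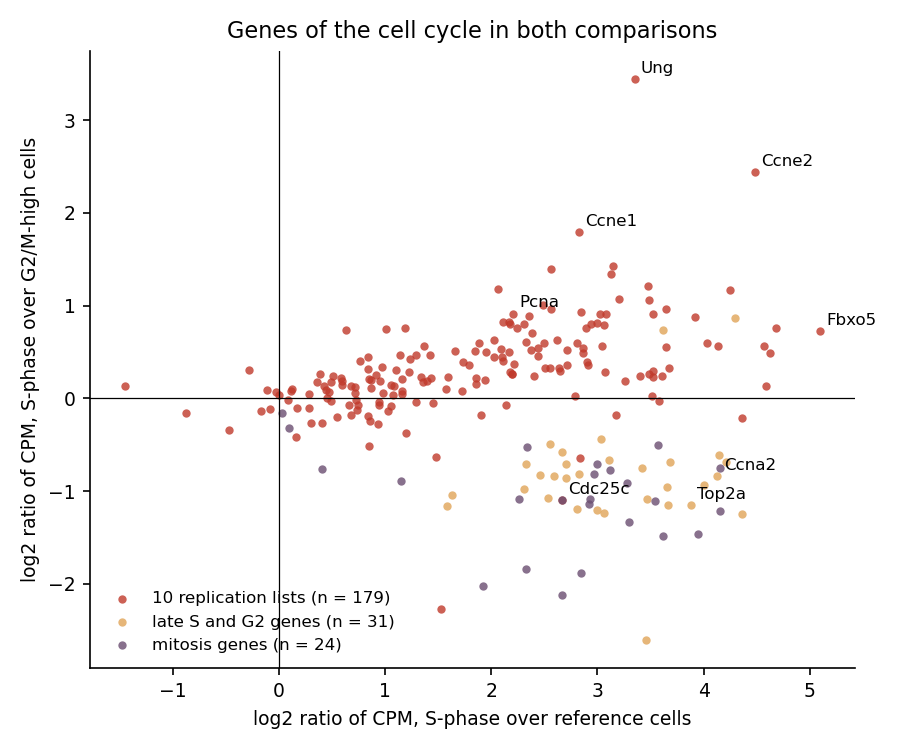
Each point is a gene past the floor and outside the rule, with its log2 ratio of CPM in S-phase over reference cells across and over G2/M-high cells upward. Genes of the 10 replication lists lie mostly above 0 on the upward axis, with Ung at 3.45, and late S, G2 and mitosis genes mostly below it, with Top2a at -1.15.

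The promoter windows were compared as a description of sequence. Of the 124 genes higher than in the G2/M-high cells 95 had a window by symbol, and of the 202 lower 167 had one. An E2F motif was held by 21.3% of the 122 windows found for genes higher in the S-phase than in the G2/M-high cells, by 3.13% of the 192 windows for genes lower, and by 4.13% of windows for all genes past the floor. A CHR motif was held by 15.6%, 45.3% and 13.6% of the same sets. Genes of the rule were kept in the sets of called genes. Mcm5, Cdc6, Clspn, Hells and Dtl, each with an E2F match, are among the genes higher than in the G2/M-high cells. Plk1, Cdc20, Hmmr and Ube2c, each with a CHR match, are among the genes lower. The part of these shares that follows from the choice of cells was not separated. For genes higher than in the reference cells the shares were 12.3% for E2F and 21.6% for CHR, and for genes lower 1.18% and 11.3%. The 169 windows of the 10 replication lists held an E2F motif in 22.5% and a CHR motif in 18.3%. The E2F match of Hells and the CHR match of Ube2c printed above lie 62 and 29 bases before the start. Ccne1 and Ung, both high in the S-phase cells, had no match to either set of letters in their windows.

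The 2283 cells outside the G2/M-high class were also cut into 10 equal classes by their S-phase share, with class 10 the highest, to see where along the scale other genes moved. These classes follow the rule's own axis and are a description. The 311 cells with no UMI of the 8 genes fill class 1, of 229 cells, and part of class 2. Their order in the matrix, and not their share, divided them between these classes. Mcm3 was at 8.31 CPM in class 1, 28.8 in class 4, 144 in class 7 and 272 in class 10, so it was higher in every later class. Hist1h1b stayed between 1.21 and 2.69 CPM in classes 1 to 4 and was at 18.4 in class 5, 63.6 in class 6 and 192 in class 10. Top2a went from 13.7 in class 4 to 319.98 in class 8 and was at 289 in class 10. The histone thus came up later along the scale than Mcm3. Top2a was below Mcm3 in class 4, but in class 5 it was at 60.2 CPM, near the 64.4 of Mcm3. Top2a did not gain past class 8, on a scale that leaves out the G2/M-high cells, where it stood at 656 CPM. Ung was at 1.73, 4.47, 20.9 and 41.4 CPM in classes 1, 4, 7 and 10, and Ccne1 at 6.93, 14.5, 46.7 and 108. Both were highest in class 10. Mxd4, a repressor that opposes Myc, ran down from 70.4 CPM in class 2 to 18.3 in class 7 and 5.85 in class 10. Median UMIs per cell were 23096 in class 1 and 23963 in class 10, with the most, 32975, in class 2.

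**Figure D4:**
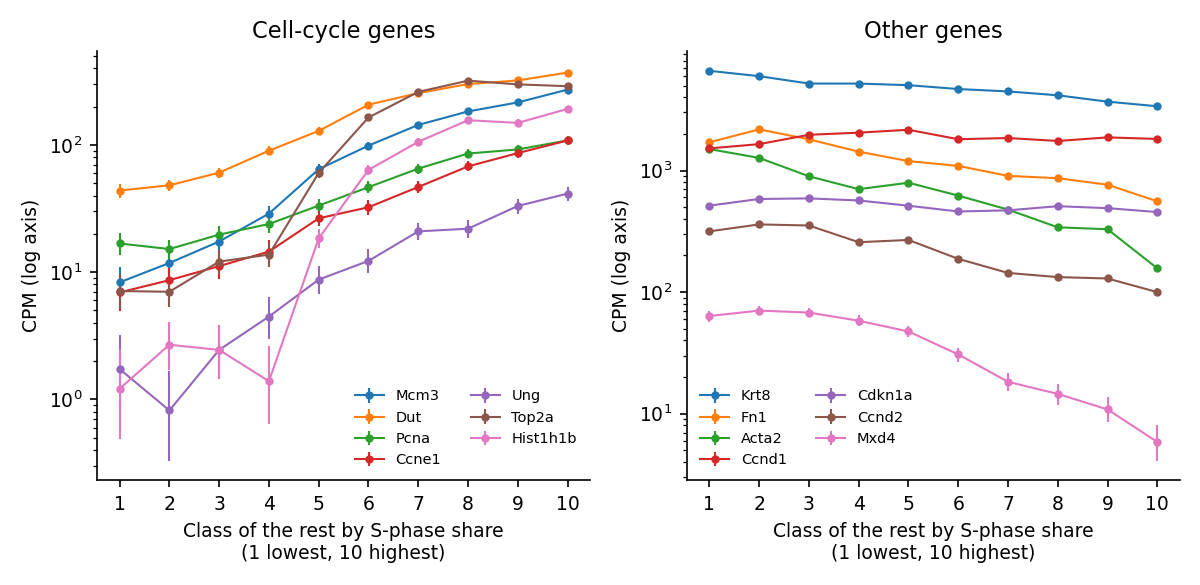
CPM on a log axis in 10 classes of the 2283 vehicle cells outside the G2/M-high class, ordered by S-phase share, with exact Poisson 95% bars; cell-cycle genes are on the left and other genes on the right. Mcm3 climbs over the whole range and Hist1h1b only from class 5, while Mxd4 and Acta2 fall and Ccnd1 and Cdkn1a stay nearly level.

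Within the 457 members, most mitosis genes and some replication-dependent histones were higher where late genes were higher, and most genes of the replication lists were called in neither direction. The members were cut by their summed share of the 31 late S and G2 genes into a low class of 153 cells and a middle and a high class of 152 each, with medians of 1658, 2516 and 3635 UMIs of those genes per 1000000 and 23237, 24436 and 27283 total UMIs per cell; the part of depth was not tested. Leaving out the 31 genes, 357 of 9578 genes were higher in the high than in the low class (3.73%) and 158 were lower (1.65%). Mitosis genes were higher in 18 of 24, led by Cenpf at 38.5, 73.3 and 171 CPM in the low, middle and high classes. Replication-dependent histones were higher in 6 of 13. Hist1h1b stood at 80.6, 152 and 267 CPM (log2 high over low 1.73, interval 1.55 to 1.91). In the origin licensing list 1 of 14 genes was lower and none higher (median -0.09), and in the G1/S control list 1 of 24 was lower and 1 higher (median -0.08). The other replication lists had medians from 0.02 for mismatch and base excision repair to 0.31 for homologous recombination and Fanconi genes. The recombination list had 3 of 24 genes higher and 1 lower, and helicase activation 2 of 14 higher and none lower. The clamp, mismatch repair and chromatin assembly lists each had 1 gene higher and 1 lower, and the checkpoint list 1 higher and none lower. Ccne2, Cdc6, which is a gene of the rule, and Ung, shown with Cdt1 because they were called lower, went down in the same order. Ccne2 stood at 63.2, 57.8 and 28.5 CPM (log2 -1.15, interval -1.47 to -0.84), Cdc6 at 92.9, 68.7 and 46.7 (-0.99), and Ung at 48.8, 39.1 and 24.5 (-0.99). The licensing factor Cdt1, whose protein is destroyed once S phase begins, stood at 49.3, 47.5 and 32 CPM. Ccne1 at 106, 101 and 83.9 CPM, E2f1 (log2 -0.26) and the rule gene Mcm5 (-0.03) were not called. In the polymerase list 0 of 11 genes were called, and in the nucleotide list 0 of 21. Mcm3 was at 247, 256 and 228 CPM and Pcna at 95.3, 98.8 and 105.

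**Figure D5:**
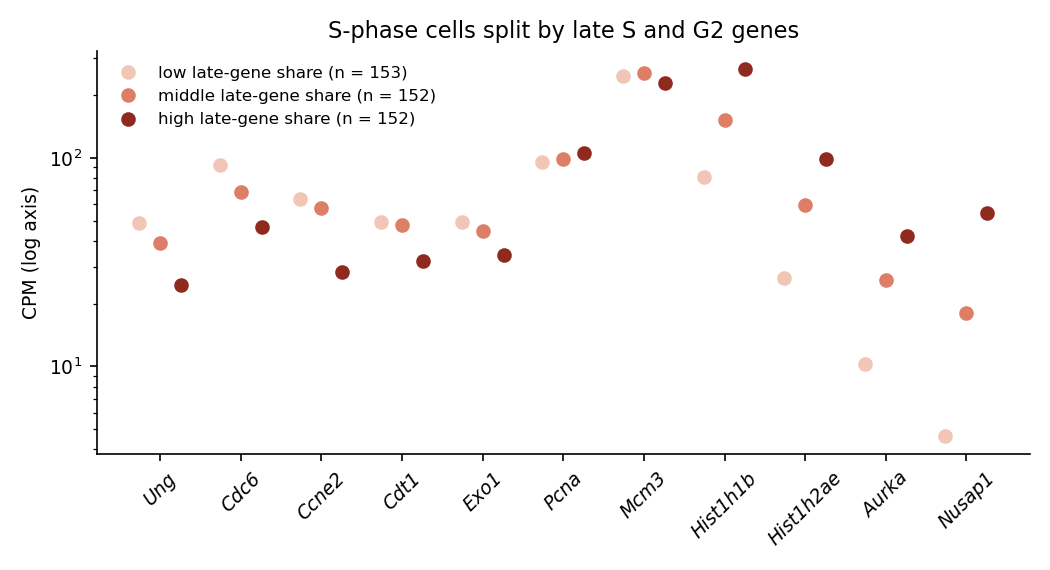
CPM on a log axis of 11 genes in the S-phase cells, split by their share of late S and G2 genes into low, middle and high classes of 153, 152 and 152 cells. Ung, Cdc6, Ccne2 and Cdt1 fall from low to high, Exo1 goes from 49.3 to 34.2 without a call, Pcna and Mcm3 stay close, and the histones, Aurka and Nusap1 climb; Nusap1 is 1 of the genes that made the split.

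Genes that hold cells out of the cycle were mixed in the S-phase cells. Of 25 CDK inhibitors and quiescence genes 5 were higher and 9 lower than in the reference cells (median -0.31). As a background for the 3 lists of this paragraph, 12.9% of the 9609 measured genes were called higher and 7.78% lower. Mxd4 (chr5:34173883-34187720) stood at 8.41 CPM in the S-phase cells, 21.2 in the middle cells, 61.8 in the reference cells and 8.71 in the G2/M-high cells (log2 -2.88, interval -3.17 to -2.60) and after thinning was seen in 12.5% of members and 57.2% of reference cells. Gas6, a ligand named for growth arrest, had 3.66 and 15.3 CPM, and the INK4 inhibitor Cdkn2b 26.9 and 67.7. Other INK4 inhibitors went the other way, with Cdkn2c at 7.64 and 1.77 CPM and Cdkn2d at 12.2 and 4.47. Both were higher still in the G2/M-high cells, at 12.1 and 36.7. Cdkn1a, the p53-induced inhibitor p21, was close to level at 473 CPM in the S-phase cells, 479 in the middle cells, 556 in the reference cells and 498 in the G2/M-high cells (log2 -0.23, interval -0.28 to -0.19). Trp53 targets were lower in 4 of 19 and higher in none, with Trp53inp1 at 17.5 and 46.1 CPM and Gadd45a at 23 and 37.4. None of the 19 was called against the G2/M-high cells, where 1.29% of all genes were higher and 2.1% lower, so this absence says little about the list. Gadd45a fell below the call with every other cell of the rest as reference (log2 -0.54). Of 16 immediate early genes 1, Fosl1, was called against the reference cells (log2 0.72). Its ratio was 0.50, below the call, with every other cell of the rest as reference.

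Ribosome biogenesis was higher in 12 of 20 genes and lower in none, with ratios from 0.27 to 1.45 and a median of 0.70. Of all 9609 measured genes 12.9% were higher and 7.78% lower than in the reference cells. With every other cell of the rest as reference the median was 0.50, below 1.5-fold. Nucleolin, Ncl, stood at 1515 CPM in the S-phase cells, 1173 in the middle cells, 718 in the reference cells and 1325 in the G2/M-high cells, and along the 10 classes it went from 610.5 CPM in class 1 to 1596 in class 10. The snoRNP subunits Dkc1 and Nop56 had log2 ratios of 1.45 and 0.96. None of the 20 was called against the G2/M-high cells. In that comparison 1.29% of all genes were higher and 2.1% lower, so this absence says little about the list.

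Contractile and matrix genes were the groups with the lowest medians among those of 10 or more genes. As a background, 12.9% of the 9609 measured genes were called higher than in the reference cells and 7.78% lower. Of 18 contractile actin genes 7 were lower and none higher (median -0.44). Smooth muscle actin, Acta2, stood at 245 CPM in the S-phase cells, 483 in the middle cells, 1027 in the reference cells and 375 in the G2/M-high cells (log2 -2.06, interval -2.12 to -2.01), and the actin binders Tagln at 393 and 1144 CPM and Cnn1 at 11.6 and 47.6. Skeletal actin, Acta1, named for its small ratio outside the lists, had 123 and 557 CPM. The share of cells with a UMI differed less: after thinning Tagln was seen in 46.5% of members and 51.5% of reference cells, and Acta2 in 42.2% and 58.5%. Of 13 matrix and mesenchymal genes 7 were lower, among them fibronectin, Fn1, at 666 CPM in the S-phase cells, 953 in the middle cells, 1683 in the reference cells and 763 in the G2/M-high cells, and the collagen crosslinking enzyme Lox at 14.4 and 50.7 CPM. Vimentin, Vim, was the 1 higher. Against the G2/M-high cells 3 of the 18 contractile genes were lower, and none of the 13 matrix genes was called. In that comparison 1.29% of all 9609 genes were higher and 2.1% lower, so no call among 13 genes says little about the list. Outside the lists, among the genes named for their small ratios, the stress factor Ddit3 had 7.09 and 33.4 CPM, lipocalin 2, Lcn2, 88.7 and 345, and the cornified envelope gene Sprr1a 353 and 991. Against the G2/M-high cells Ddit3 was lower (log2 -0.75), while Acta1 (-0.24), Lcn2 (-0.27) and Sprr1a (-0.29) were not called.

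Genes of the labelled cell type were present in the S-phase cells. Pax2, the gene that marks the lineage, stood at 36.5 CPM in the S-phase cells, 37.8 in the middle cells, 39.7 in the reference cells and 47.1 in the G2/M-high cells (log2 -0.12, interval -0.28 to 0.03), and its relative Pax8 at 117 CPM in the S-phase cells, 127 in the middle cells, 118 in the reference cells and 119 in the G2/M-high cells. Of 22 parietal epithelial and progenitor genes 2 were higher, 3 lower and 17 neither, with a median of -0.13. Beside these counts, 12.9% of the 9609 measured genes were called higher and 7.78% lower. In the parietal list the keratins Krt8 (3539 and 5574 CPM) and Krt19 (644 and 987) and the signal Wnt4 were lower. All 3 calls were lost with every other cell of the rest as reference (log2 -0.54, -0.51 and -0.43), those of Krt19 and Wnt4 also with thinned cells (-0.54 and -0.51), and those of Krt8 and Krt19 with the top 30% as members (-0.57 and -0.53). Stem cell factor, Kitl (15.2 and 8.26), was higher. The retinoic acid enzyme Aldh1a2 (log2 0.59) was called higher, but its ratio fell below the call under most alternatives. It was 0.57 under TMM factors, 0.51 as a mean over cells and 0.39 with thinned cells. With every other cell of the rest as reference it was 0.44.

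Markers of other kidney and blood cells were mostly low or absent in the S-phase cells. Of 14 podocyte genes 12 had a row and 3 passed the floor, with a summed 417 CPM in the S-phase cells, 501 in the reference and 423 in the G2/M-high cells, nearly all of it Cd2ap, and Wt1 was at 0 in the S-phase cells. The fibroblast list, with 7 of 10 genes having a row, summed to 0.467, 3.76 and 2.26 CPM, with Col1a2, Meg3 and Fap at 0. The mesangial and pericyte list (8 of 10) summed to 10.1, 25.9 and 16.5, with Pdgfrb, Itga8, Des and Agtr1a at 0. Its 1 gene past the floor, Mcam, was lower in the S-phase cells. The immune list (7 of 12) summed to 12.9, 15 and 12.8, with Lyz2 and Itgam at 0, and the collecting duct list (10 of 11) to 15.8, 26 and 18.2, with Aqp2 and Foxi1 at 0. The loop and distal tubule list (10 of 10) summed to 260.2, 307 and 291, most of it the widely expressed kinase Wnk1, with Umod at 0. The endothelial list (10 of 10) summed to 23.8, 31.8 and 21.9, with Tek and Tie1 at 0 in the S-phase cells. Emcn, a sialomucin of endothelium, had no UMI in the S-phase cells and 452 in the reference cells, all of them in 4 cells. In the proximal tubule list (5 of 10 with a row) the water channel Aqp1 was higher, at 12.7 CPM in the S-phase cells, 10.4 in the middle cells, 1.83 in the reference cells and 14.3 in the G2/M-high cells, seen in 48 of 457 S-phase and 27 of 1142 reference cells, while Kap and Hnf4a were at 0 in the S-phase cells.

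The panobinostat library, set beside the classes with 1 library each, was lower than the vehicle reference cells for 118 of the 179 replication genes, as it was for 5213 of all 9609 genes. Ccna2 stood at 0.173 CPM there, Pclaf at 0.845 and Mcm3 at 8.13, against 5.2, 37.2 and 26.4 in the reference cells. Other genes high in the S-phase cells were not below the reference there. Ung stood at 5.8 CPM, Ccne1 at 19.5 and Gmnn at 40.3, against 3.62, 13.7 and 18.3 in the reference cells. Mxd4, low in the S-phase cells, had 57.6 CPM in the panobinostat library, near the 61.8 of the reference cells. Acta2 was below the 1027 CPM of the reference cells in both, at 12 CPM in the panobinostat library and 245 in the S-phase cells.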

How the data were processed

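The files hold 1 vehicle and 1 panobinostat library made with 10x 3′ chemistry, per the labels' protocols. The build mm10 and the tool Cell Ranger 3.0.1 appear in the submitters' processing notes, with no role given. The deposited matrix holds raw UMI counts for 19394 genes and 5135 cells, as whole numbers with no normalization by the authors, and each cell's library was read from the end of its deposited barcode. Filters and the annotation behind the counts are not given in the sources used here.

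Counts were summed over the cells of a class and scaled to 1000000 UMIs (CPM), with exact Poisson intervals. Ratios have exact conditional binomial (Clopper-Pearson) intervals, and shares of cells exact binomial ones, at 95%. A call needed 1.5-fold, an interval that excludes equality and 5 CPM over all vehicle cells. A gene with no UMI in a class was set at 3 counts. For shares of cells, UMIs were drawn without replacement down to 16665 per cell, which is the 10th percentile over vehicle cells. This left out 42 S-phase, 78 middle, 131 reference, 35 G2/M-high and 36 panobinostat cells. Cells were not clustered and no doublet caller was run. An alternative leaves out the 10% of vehicle cells with the most UMIs.

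The members, the 30 gene lists and the rules were chosen with earlier results of these data known. Named genes are the rule genes, up to 5 per list with the largest absolute ratio, the 15 largest and 15 smallest ratios outside the lists among genes at 20 CPM or more, and 12 always named. Others, among them Pold4, E2f1, Nusap1, Cdc25b, Cdkn2b, Ccnd2, Cenpf, Aurka and Hist1h1c, were named after their values were seen, a few genes that the rule names are left out of the text, and the 10 classes, the split of members by late genes and the promoter windows were also added then. Promoters came from RefSeq by symbol. On simulated counts for the S-phase over reference comparison, with 9609 genes, the calls found 0 of 50 genes set at 1.2-fold, 50 of 50 at 2-fold, 50 of 50 at 0.5-fold and 50 of 50 at 4-fold, and 5 of 9409 unchanged genes. Each simulated count was 1 Poisson sum per gene and class, without spread between cells and without a choice of cells by transcripts. The simulation therefore checks the calls against counting error only and gives no rate of false calls for the real cells. Alternatives were other floors, folds, depths and choices of cells, a mean over cells, and other scalings: the median gene set at 0, edgeR 4.0.16 (TMM) and DESeq2 1.42.0 (size factors). The software was R 4.3.3 and Python 3.11.15 with pandas 2.3.3, numpy 2.4.6, matplotlib 3.10.9 and scipy 1.17.1.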

Additional observations from a re-analysis of the deposited data

How the results depend on the processing

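With 1 library per treatment and cells that are not replicates, depth limits counting error only, and no spread between cultures or animals can be given. No paired analysis was possible because each group has 1 library. Against the reference cells the counts of higher and lower genes, 1239 and 748, kept within 1.5 times under the scalings, the mean over cells, thinning, the choice on a random 50% of UMIs, within depth classes, the other member shares, without the deepest cells and with 30% set aside as G2/M-high. A floor of 1 CPM gave 1228 lower than the reference, and 277 higher and 322 lower than the G2/M-high cells (124 and 202 otherwise). A floor of 20 CPM gave 740 higher and 320 lower than the reference, and 48 and 95 against the G2/M-high cells. At 2-fold these were 567 and 182, and 23 and 62. These settings change which genes can be called by construction. With every other cell of the rest as reference, middle cells included, 725 were higher and 410 lower. Of named gene ratios and list medians, 109 moved by over 1.5 times with that reference and 32 with 30% set aside as G2/M-high. The share of panobinostat cells at the S-phase edge was 0 under each of its 4 alternatives. The 149 named genes that were called kept their sign in 2086 of 2086 alternative values, and the 22 list medians past 1.5-fold in 303 of 304. The exception was the endothelial list, with a median of 0.52 at a floor of 1 CPM against -2.62, where Emcn is 1 of 2 genes. The TMM factors moved the median of all genes by -0.02. The other scalings also shifted all genes by little, and the floors leave the ratio of a gene unchanged. Neither could reverse a called gene. The direction of the S-phase genes of the rule follows from the choice of cells. The count of kept signs for genes was therefore largely fixed in advance, and only the other settings could have changed it.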
